A study of Homo sapiens with 16 samples.

Results

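The 10 genes described here were ATF4, ATF3, ATF5, DDIT3, DDIT4, TRIB3, CHAC1, SESN2, ASNS and GDF15, taken by name from a table of 26830 entries. All 10 had an entry, and all 10 passed the filter on low values, at least 1 TPM in at least 3 libraries, which 14951 entries passed. The rule names the genes and uses no measured value, but earlier results of these data were known when the set was proposed. ATF4 is a transcription factor of the integrated stress response. Kinases that sense lack of amino acids, unfolded protein in the endoplasmic reticulum (ER), viral RNA or lack of haem phosphorylate the translation factor eIF2alpha, which lowers protein synthesis as a whole but lets ribosomes reach the ATF4 coding frame past short upstream frames. ATF4 protein then switches on genes for amino acid synthesis and import, further stress factors such as DDIT3, and secreted GDF15. Because much of this control acts on translation, the RNA of ATF4 is not a reading of its protein, and only RNA was measured here.

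All libraries came from NOMO-1, an established human cell line of acute monocytic leukaemia, a myeloid cancer, and were made from poly(A) RNA. One experiment set 2 compounds that the series presents as inhibitors of FTO, an enzyme that removes the m6A mark from RNA, against their solvent over 72 h: DMSO alone (4 libraries), CS1 at 100 nM (3 libraries) and CS2 at 500 nM (3 libraries). CS1 is known elsewhere as bisantrene and CS2 as brequinar, which blocks DHODH, an enzyme of pyrimidine synthesis; these identities are general knowledge and were not checked here. In the other experiment the cells carried a lentiviral hairpin, either the control shNS (3 libraries) or shFTO against FTO (3 libraries), and had been kept in 1 µg/ml puromycin for 1 week. The series calls the replicates biological without saying what separated them, so the p-values measure the spread between these libraries. It is 1 cell line at 1 dose of each compound and 1 time, and the labels do not say how many hairpins against FTO were used or what the control hairpin targets.

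Values are TPM, an abundance per transcript length that sums to 1000000 in every library. Reads cannot be recovered from them, and with the depth unknown counting error could not be given. Each library had from 18675 to 19358 entries above 0. FTO checked the hairpin: it stood at 31.6 ± 1.03 TPM (SD, n = 3) in shNS and 7.99 ± 0.445 TPM (n = 3) in shFTO, 25.3% of the control level, and at 31.7 ± 1.82 TPM (n = 4) in DMSO, 34.1 ± 2.43 TPM with CS1 and 34.2 ± 1.02 TPM with CS2 (n = 3 each). Of 13 markers of myeloid cells, 10 were at or above 1 TPM in every library, while MPO and CD14 stayed under 1 TPM in all 16. The defining markers CD3E of T cells, HBA1 of red cells and LUM of fibroblasts were at 0 in all 16, although the lymphocyte gene NKG7 stood at 234 to 485 TPM. The summed level of the 13 myeloid markers was 514 to 536 TPM in DMSO, 979.9 to 1044 TPM with CS1, 1167 to 1226 TPM with CS2, 775 to 797 TPM in shNS and 3100.4 to 3709.8 TPM in shFTO. In shFTO most of this sum was LYZ, at 2226 of a mean of 3304 TPM, against 163 of 786 TPM in shNS. The part of this shift in the results for the 10 genes was not tested, and in bulk RNA a change in the number of cells of a type and a change in RNA per cell cannot be told apart.

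Before the values, the promoters of the 10 genes were searched for the letters TGATGNAA, the usual form of the C/EBP-ATF response element to which ATF4 binds with a C/EBP partner. RefSeq windows from 250 bases before to 50 bases after each start (GRCh38.p14) were found for all 10 genes, 18 windows in all. Both strands were searched, and this motif contains the shorter core TGATG. TGATGNAA was present for 3 of the 10, ATF3, ASNS and CHAC1, and in 4.46% of the 27305 genes with a window. Among 48 other ATF4 targets listed from general knowledge, 36 had a window and 13 of those (36.1%) held it. The stretches that carry the 3 matches are shown because, within these windows, they set these genes apart by sequence from the other members. Each is written 5′ to 3′ along the gene's strand with the match in capitals, and for CHAC1 the match is on the opposite strand and so reads as its reverse complement.
ATF3, chr1:212565157-212565333, plus strand: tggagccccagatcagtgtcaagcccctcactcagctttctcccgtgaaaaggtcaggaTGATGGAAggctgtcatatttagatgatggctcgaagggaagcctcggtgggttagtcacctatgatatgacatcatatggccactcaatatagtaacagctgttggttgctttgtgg
ASNS, chr7:97872458-97872487, minus strand: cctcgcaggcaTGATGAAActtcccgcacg
CHAC1, chr15:40953251-40953280, plus strand: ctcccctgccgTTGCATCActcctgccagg
The match lay at positions -191 to -184 from the RefSeq start of ATF3, -68 to -61 from that of ASNS and -209 to -202 from that of CHAC1. In GENCODE release 29 it overlaps an annotated untranslated region of ASNS and of CHAC1, and for ATF3 it falls outside the annotated untranslated regions. The core TGATG was present for the same 3 of the 10 and in 37.7% of genes with a window. The full cyclic AMP response element TGACGTCA was present for 0 of the 10 and in 2.25% of genes. A match describes letters in the window and does not show that a factor binds there. Lack of a match covers only these windows, and sequence further from the starts was not searched.

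**Figure D1:**
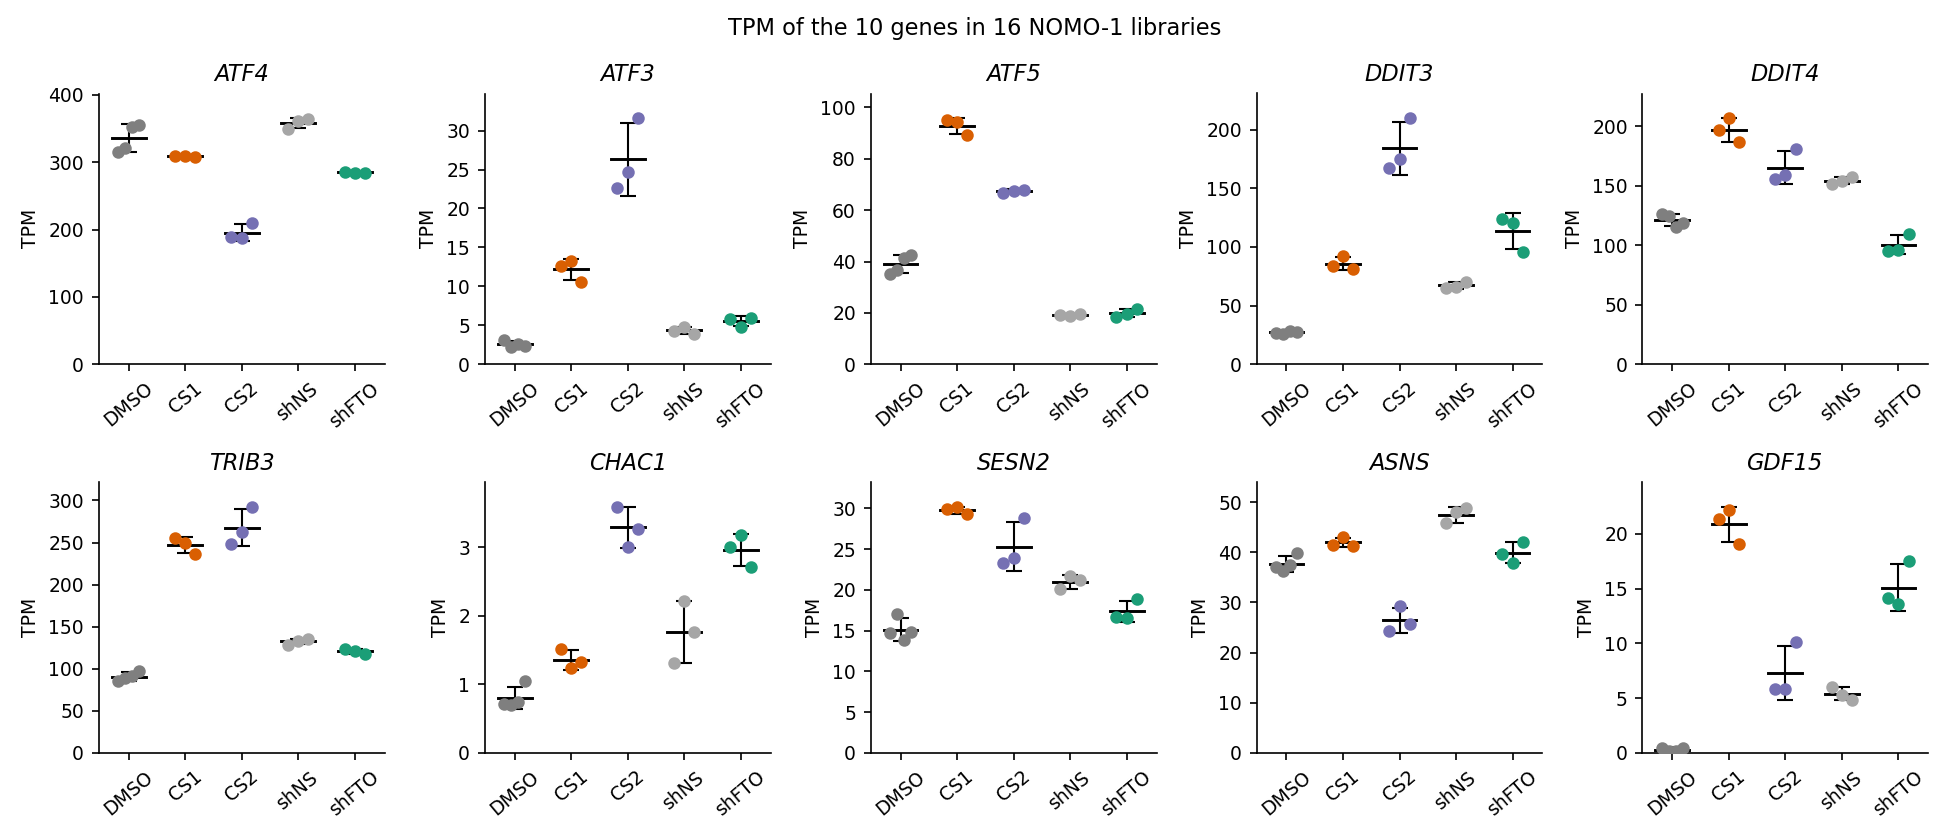
TPM (vertical axes, each starting at 0) of the 10 genes in each of 16 NOMO-1 libraries, grouped by treatment or hairpin; each point is 1 library, and bars give mean ± SD of a group. GDF15 lies between 0.12 and 0.46 TPM in DMSO and at 4.86 TPM or more in every other library, while ATF4 stays between 187 and 364 TPM throughout.

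The genes differed widely in how far their level moved between the 5 groups. The highest group mean divided by the lowest was 1.80 for ASNS, 1.83 for ATF4, 1.96 for DDIT4, 1.97 for SESN2, 2.96 for TRIB3, 4.12 for CHAC1, 4.85 for ATF5, 6.79 for DDIT3, 10.3 for ATF3 and 72.6 for GDF15. The group that stood highest also differed. CS1 held the highest mean of ATF5, DDIT4, SESN2 and GDF15, CS2 that of ATF3, DDIT3, TRIB3 and CHAC1, and shNS that of ATF4 and ASNS.

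Among the transcription factors, ATF4 itself (chr22:39519695-39522685, plus strand, GRCh38, GENCODE release 29 here and for the other genes) stood at 315, 321, 352 and 356 TPM in DMSO. With CS1 the values were 309.8, 309 and 308 TPM, and with CS2 189, 187 and 210.0 TPM. In shNS it was 349, 361 and 364 TPM, and in shFTO 286, 285 and 284 TPM. The order was shNS, DMSO, CS1, shFTO and CS2 from high to low. Only shNS and DMSO overlapped, and the RNA of ATF4 was therefore below that of each control in all 3 treated groups. Pseudogenes named after ATF4 (ATF4P1 to ATF4P4) have no entry in the table, so reads shared with them may have been counted for ATF4 or lost.

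ATF3 (chr1:212565334-212620777, plus strand), an early stress factor of the same bZIP family that is induced by ATF4 and also by p53 and other signals, was low in DMSO at 3.10, 2.16, 2.59 and 2.36 TPM. It stood at 12.7, 13.3 and 10.6 TPM with CS1 and 22.6, 24.7 and 31.6 TPM with CS2, so that these 3 groups did not overlap. Under the hairpins it was 4.31, 4.81 and 3.94 TPM in shNS against 5.75, 4.77 and 5.97 TPM in shFTO, and these groups overlapped.

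ATF5 (chr19:49928702-49933935, plus strand) is a close relative of ATF4 that is tied to mitochondrial stress and is likewise controlled by upstream frames. Its level was 35.1, 36.9, 41.3 and 42.4 TPM in DMSO, 95, 94.2 and 89.4 TPM with CS1, and 66.6, 67.3 and 68.1 TPM with CS2. It was lowest in the hairpin libraries, at 19.1, 18.7 and 19.6 TPM in shNS and 18.4, 19.7 and 21.5 TPM in shFTO. The 2 hairpin groups overlapped, and all 6 of their libraries lay under every DMSO library. ATF5 shares 626 exonic bases with NUP62 and 75 with IL4I1 on the opposite strand, and whether counting used strand is not given in the sources used here. NUP62 had means of 146, 149, 196, 104 and 75.7 TPM in DMSO, CS1, CS2, shNS and shFTO. Like ATF5, it was higher with CS2 (0.42 on the log2 scale used below, adjusted p = 5.45e-06). It was also lower in shNS than in DMSO (-0.48, adjusted p = 3.49e-06). It did not pass with CS1 (0.03, adjusted p = 0.646) and fell in shFTO (-0.46, adjusted p = 1.03e-05). IL4I1 had lower means of 1.42, 7.66, 8.63, 1.68 and 5.62 TPM in the same order. It rose with CS1 (1.84, adjusted p = 9.24e-09), with CS2 (1.99, adjusted p = 6.55e-10) and in shFTO (1.31, adjusted p = 6.17e-07). The part of either neighbour in the ATF5 values was not tested.

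DDIT3 (chr12:57516588-57521737, minus strand) encodes CHOP, a C/EBP-related factor that promotes cell death when stress lasts. It stood at 26.7, 26.1, 28.6 and 27.1 TPM in DMSO, 83.5, 92.2 and 81.4 TPM with CS1, and 167, 175 and 209.7 TPM with CS2. Its hairpin values were 65.1, 66.1 and 70.2 TPM for shNS and 124, 120.3 and 95.6 TPM for shFTO. None of the 5 groups overlapped a neighbour, in the order CS2, shFTO, CS1, shNS and DMSO. DDIT3 shares 355 exonic bases with MARS and 58 with MBD6 on the opposite strand. MARS had group means of 139, 146, 96.1, 161 and 113 TPM in DMSO, CS1, CS2, shNS and shFTO, and so was lowest where DDIT3 was highest. MBD6 had means of 31.7, 29.8, 49.9, 37.2 and 45.8 TPM in the same order, highest with CS2 and next highest in shFTO, as DDIT3 was. MBD6 rose by 0.64 with CS2 (adjusted p = 3.03e-09) and by 0.29 in shFTO (adjusted p = 7.60e-05), and the part of either neighbour in the DDIT3 values was not tested.

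The next 3 genes act on growth signalling. DDIT4 (chr10:72273920-72276036, plus strand) encodes REDD1, which restrains the growth kinase mTORC1. Its level was 127, 124, 115 and 118 TPM in DMSO, 197, 207 and 187 TPM with CS1 and 156, 159 and 181 TPM with CS2. It was 152, 154 and 157 TPM in shNS and lowest in shFTO at 95.4, 96.2 and 109.6 TPM. CS2 and shNS overlapped; the other neighbours in the order did not. An antisense gene that shares 847 exonic bases with DDIT4 has no entry in the table.

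SESN2 (chr1:28259527-28282491, plus strand) encodes sestrin 2, a leucine sensor that also restrains mTORC1 and is known as a p53 target too. It stood at 14.7, 17.1, 13.9 and 14.8 TPM in DMSO, 29.9, 30.2 and 29.3 TPM with CS1, and 23.3, 23.9 and 28.8 TPM with CS2. With the control hairpin it was 20.1, 21.8 and 21.2 TPM, and with shFTO 16.7, 16.6 and 18.9 TPM, which overlapped DMSO.

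TRIB3 (chr20:362835-397559, plus strand) is a pseudokinase that binds AKT and feeds back on ATF4 and CHOP. It stood at 85.2, 88.8, 91.2 and 97.1 TPM in DMSO, 255, 249 and 236 TPM with CS1, and 249, 262 and 293 TPM with CS2. For shNS the level was 128, 133 and 135 TPM and for shFTO 123.3, 121 and 117 TPM. The libraries of the 2 compounds overlapped and were all above the hairpin libraries, which in turn were all above DMSO.

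Of the 2 enzymes, ASNS (chr7:97852118-97872542, minus strand) makes asparagine and is a standard readout of amino acid shortage. It varied least of the 10, at 37.1, 36.2, 37.6 and 39.9 TPM in DMSO, 41.6, 43.0 and 41.3 TPM with CS1, and 24.3, 29.2 and 25.7 TPM with CS2. In shNS it reached 45.8, 48.0 and 48.8 TPM, compared with 39.7, 37.9 and 42.1 TPM in shFTO. CS2 lay below, and shNS above, all other libraries, while CS1, shFTO and DMSO overlapped their neighbours. A processed transcript that shares 1985 exonic bases with ASNS has no entry in the table.

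CHAC1 (chr15:40952962-40956519, plus strand), an enzyme that breaks down glutathione and lies under ATF4 and CHOP, was scarce in every library. It stood at 0.71, 0.70, 0.74 and 1.04 TPM in DMSO, 1.52, 1.23 and 1.32 TPM with CS1, and 3.59, 3.00 and 3.27 TPM with CS2. Under the hairpins it was 1.31, 2.21 and 1.76 TPM for shNS, with 3.00, 3.17 and 2.71 TPM for shFTO. CS2 overlapped shFTO and shNS overlapped CS1, and DMSO was below all others. Its fold changes on the log2(TPM + 1) scale are compressed for that reason.

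GDF15 (chr19:18374731-18389176, plus strand) is a secreted cytokine of the TGF-beta superfamily that rises in many forms of cell stress, lowers appetite through its receptor GFRAL in the brainstem, and can be induced by ATF4, CHOP or p53. It was near 0 in DMSO at 0.46, 0.12, 0.12 and 0.45 TPM. It stood at 21.4, 22.2 and 19.1 TPM with CS1 and 5.79, 5.86 and 10.1 TPM with CS2. In shNS it was already at 6.05, 5.29 and 4.86 TPM, and in shFTO at 14.1, 13.6 and 17.6 TPM. From high to low the order was CS1, shFTO, CS2, shNS and DMSO, and of these neighbours CS2 and shNS overlapped.

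Single libraries stood at the edge of their group for many of the genes at once. CS2 replicate 3 was the highest of its group for 8 of the 10, all but CHAC1 and ASNS, and its share of ribosomal RNA entries was 2.95% of TPM against 0.828% and 1.4% in the other two. CS1 replicate 3 was the lowest of its group for 9 of the 10, all but CHAC1. Without CS2 replicate 3 GDF15 differed from DMSO by 2.42 instead of 2.65 on the log2 scale used below, and no call of the 10 genes against DMSO was lost.

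The comparisons that follow used limma on log2(TPM + 1) over all 14951 tested entries, two-sided, with p-values adjusted by the Benjamini-Hochberg method over those entries and a threshold of 0.05. Log2 differences on this scale understate changes of genes with low TPM, so the ratio of the group means in TPM is given beside them. The median of all tested entries was itself 0.09 for CS1, 0.20 for CS2 and 0.07 for shFTO against their controls. Scaling the libraries to a common median moved these values to -0.09, -0.03 and -0.01. Beside this shift, cytosolic ribosomal protein entries took 14.5 to 16.1% of TPM in DMSO, 13.8 to 14.8% with CS1 and 8.23 to 8.45% with CS2. The part of these entries in the results was not tested, and differences are best read against these medians.

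With CS1, GDF15, ATF3, DDIT3, TRIB3, ATF5, SESN2 and DDIT4 rose against DMSO, and CHAC1, ASNS and ATF4 had the smallest differences. Of the 10 genes, 9 rose and 1 fell, where 37.5% of all tested entries rose and 14.3% fell, or 51.8% in either direction. The median of the 10 was 1.09, and that of all entries 0.09. GDF15 rose by 4.10 (SE 0.16, adjusted p = 9.48e-11), a ratio of means of 72.6 that rests on a DMSO level of 0.288 ± 0.193 TPM (n = 4). ATF3 rose by 1.89 (SE 0.12, adjusted p = 7.92e-09), 4.77 times the DMSO mean, and DDIT3 by 1.62 (SE 0.09, adjusted p = 1.42e-09), 3.16 times. TRIB3 rose by 1.44 (adjusted p = 5.20e-11, ratio 2.72) and ATF5 by 1.24 (adjusted p = 7.51e-10, ratio 2.39). The mTORC1 restrainers SESN2 and DDIT4 rose by 0.94 (adjusted p = 1.12e-07, ratio 1.97) and 0.70 (adjusted p = 1.56e-07, ratio 1.63). CHAC1 rose by 0.39 (adjusted p = 0.00750, ratio 1.70), which missed the threshold with median scaling (0.22, adjusted p = 0.11).

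The smallest 2 differences after CS1 were not stable. ATF4 fell by 0.12 (SE 0.05, adjusted p = 0.0432, ratio 0.919). That call was lost with no filter on low values (adjusted p = 0.0634), with no mean-variance trend (0.0670), with only the CS1 and DMSO libraries fitted (0.0557), and when any 1 of the 3 CS1 libraries or DMSO replicate 3 or 4 was left out (-0.12 to -0.09, adjusted p 0.0886 to 0.126). ASNS rose by 0.15 (SE 0.06, adjusted p = 0.0333, ratio 1.11). With median scaling it stood at -0.03 (adjusted p = 0.719), with quantile normalization at 0.02 (0.796) and with TPM rescaled without ribosomal and mitochondrial entries at 0.06 (0.320), and it also missed the threshold without any 1 of the CS1 libraries or DMSO replicate 1, 2 or 3 (0.13 to 0.16, adjusted p 0.0503 to 0.108). Scaling also turned the background: with median scaling 3201 entries rose and 5246 fell after CS1, in place of 5605 and 2142.

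With CS2 the stress factors ATF3 and DDIT3 rose most, and both ATF4 and ASNS fell. Of the 10 genes, 8 rose and 2 fell against DMSO, where 49.5% of all tested entries rose and 24.6% fell, so that 74.1% passed in one direction or the other. The median of the 10 was 1.02, and that of all entries 0.20. ATF3 rose by 2.93 (SE 0.12, adjusted p = 1.08e-11, ratio 10.3) and DDIT3 by 2.71 (adjusted p = 9.10e-13, ratio 6.79). GDF15 rose by 2.65 (SE 0.16, adjusted p = 9.21e-10), a ratio of 25.2 over the same low DMSO level, and TRIB3 by 1.55 (adjusted p = 1.60e-12, ratio 2.96). CHAC1 rose by 1.26 (adjusted p = 5.59e-08, ratio 4.12). ATF5 rose by 0.78 (adjusted p = 1.69e-08, ratio 1.73), SESN2 by 0.70 (adjusted p = 6.46e-07, ratio 1.67) and DDIT4 by 0.44 (adjusted p = 5.79e-06, ratio 1.36). ATF4 fell by 0.78 (SE 0.05, adjusted p = 6.46e-10, ratio 0.581) and ASNS fell by 0.50 (adjusted p = 8.95e-07, ratio 0.701). None of these 10 calls was lost in any of the alternatives tried in which the gene was tested. CS1 and CS2 share the 4 DMSO libraries, so their values are not independent of each other.

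**Figure D2:**
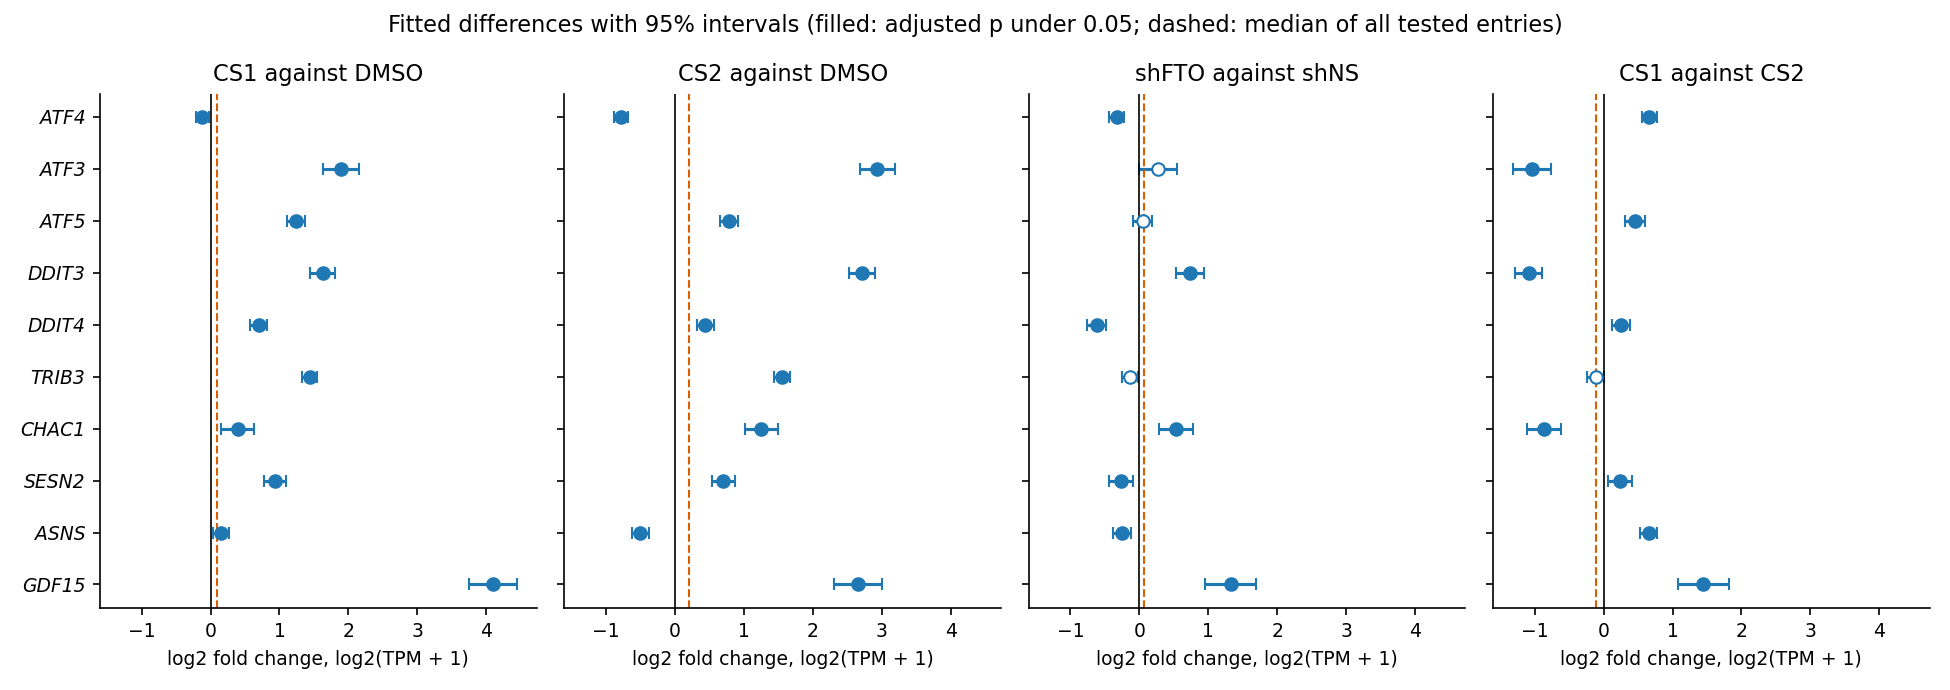
Fitted log2 differences of the 10 genes on the log2(TPM + 1) scale (horizontal axes) with 95% intervals in 4 comparisons; filled points have an adjusted p under 0.05 and the dashed line is the median of all 14951 tested entries. ATF4 lies left of 0 against the control in all 3 treated groups, and GDF15 right of 0 in all 3.

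With shFTO the 10 genes split, DDIT3, CHAC1 and GDF15 rising and ATF4, DDIT4, SESN2 and ASNS falling against shNS. The 3 that rose (30%) were close to the 31.9% of all tested entries that rose, and 4 of 10 fell where 24.5% of all entries fell; 56.4% passed in either direction. The median of the 10 was -0.04, and that of all entries 0.07. GDF15 rose by 1.33 (SE 0.17, adjusted p = 1.23e-05, ratio 2.79), DDIT3 by 0.74 (SE 0.09, adjusted p = 8.54e-06, ratio 1.69) and CHAC1 by 0.53 (SE 0.12, adjusted p = 0.00128, ratio 1.68). DDIT4 fell by 0.62 (SE 0.06, adjusted p = 9.98e-07, ratio 0.651), ATF4 fell by 0.33 (SE 0.05, adjusted p = 4.79e-05, ratio 0.796) and ASNS fell by 0.25 (adjusted p = 0.00247, ratio 0.840). SESN2 fell by 0.26 (adjusted p = 0.0126, ratio 0.826), which missed the threshold without shFTO replicate 2 (-0.23, adjusted p = 0.0504).

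The other 3 genes did not pass in shFTO against shNS. The difference of ATF3 was 0.28 (95% interval 0.0035 to 0.55, adjusted p = 0.0785), that of TRIB3 -0.13 (-0.25 to -0.01, adjusted p = 0.0552) and that of ATF5 0.05 (-0.09 to 0.19, adjusted p = 0.544). ATF3 passed when only the 2 hairpin groups were fitted (adjusted p = 0.0447) or without shFTO replicate 2 (0.36, adjusted p = 0.0448). TRIB3 passed with median scaling (-0.22, adjusted p = 0.0131), with a filter at 5 TPM (adjusted p = 0.0478) and with only the hairpin groups fitted (0.0199). ATF5 changed sign with scaling.

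The compounds were given at different doses, 100 nM and 500 nM, so compound and dose cannot be told apart when they are set side by side. At those doses GDF15 was higher with CS1 than with CS2 by 1.44 (SE 0.17, adjusted p = 3.37e-06), ATF4 by 0.66 (adjusted p = 2.16e-08), ASNS by 0.65 (adjusted p = 1.86e-07), ATF5 by 0.46 (adjusted p = 2.08e-05) and DDIT4 by 0.25 (adjusted p = 0.00235). DDIT3 was lower with CS1 by 1.09 (a difference of -1.09, adjusted p = 8.91e-08), and the differences of ATF3 and CHAC1 were -1.04 (adjusted p = 4.25e-06) and -0.86 (adjusted p = 1.21e-05). In all, 6 of the 10 were higher and 3 lower, where 26.2% of all tested entries were higher and 40.4% lower (66.6% in all) and the median of all entries was -0.11. SESN2 was among the 6 (0.23, adjusted p = 0.0208), but missed the threshold without CS1 replicate 2 or CS2 replicate 1 or 2 (0.18 to 0.22, adjusted p 0.0511 to 0.0968). TRIB3 differed by -0.12 (95% interval -0.24 to 0.0047, adjusted p = 0.0829), and passed without CS2 replicate 1 (-0.17, adjusted p = 0.0212).

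The responses to the compounds and to the hairpin were compared through the difference of differences, which uses separate controls on each side. The response to CS1 was higher than that to shFTO for 9 of the 10 genes, where 31.0% of all tested entries were higher and 18.3% lower, or 49.4% in all. It was larger by 2.77 for GDF15 (adjusted p = 3.04e-07), 1.61 for ATF3 (adjusted p = 3.09e-06), 1.57 for TRIB3 (adjusted p = 1.48e-09), 1.31 for DDIT4, 1.2 for SESN2 (adjusted p = 6.90e-07), 1.19 for ATF5 (adjusted p = 9.81e-08) and 0.89 for DDIT3 (adjusted p = 4.40e-05). For CHAC1 the difference was -0.14 (95% interval -0.48 to 0.20, adjusted p = 0.498). For ATF4 it was 0.21 (adjusted p = 0.0189), which missed the threshold with median scaling, quantile normalization or rescaled TPM (0.08 to 0.12, adjusted p 0.177 to 0.337). The response to CS2 was higher than that to shFTO for 8 of the 10 and lower for ATF4 (-0.45, adjusted p = 2.99e-05) and ASNS (-0.25, adjusted p = 0.0137), where 39.8% of all tested entries were higher and 23.7% lower, or 63.4% in all. DDIT3 differed by 1.97 and GDF15 by 1.33 (adjusted p = 0.000163). With a pseudocount of 5 TPM, which weighs low levels less, the GDF15 difference was 0.25 and missed the threshold (adjusted p = 0.160).

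The control hairpin libraries themselves differed from DMSO, in virus, hairpin, puromycin and solvent together, which cannot be told apart. Of the 10 genes, 8 were higher in shNS and ATF5 was lower, where 23.0% of all tested entries were higher and 33.6% lower, or 56.6% in all. GDF15 was higher by 2.32 (SE 0.16, adjusted p = 2.68e-08, ratio 18.8) and DDIT3 by 1.28 (adjusted p = 2.12e-08, ratio 2.48), so the level from which shFTO rose was already above that of the DMSO libraries. CHAC1 was higher by 0.61, ATF3 by 0.60, TRIB3 by 0.54, SESN2 by 0.45, DDIT4 by 0.35 and ASNS by 0.33. ATF5 was lower, with a difference of -0.98 (adjusted p = 9.36e-09, ratio 0.492). ATF4 differed by 0.09 (95% interval -0.01 to 0.19, adjusted p = 0.102), and passed with quantile normalization (0.19), with rescaled TPM (0.16) and without DMSO replicate 4 (0.12, adjusted p = 0.0401).

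Further targets of ATF4, a list of 48 genes for amino acid synthesis, tRNA charging, amino acid import and stress signalling, were tested where they passed the filter (43 genes). After CS1, 28 rose and 4 fell (65.1% and 9.30%, where 37.5% and 14.3% of all tested entries did). Their median was 0.19 above that of all entries. With median scaling 11 of the 43 fell, where 5246 of all 14951 entries did. After CS2, 15 rose and 16 fell (34.9% and 37.2%, where 49.5% and 24.6% of all entries did). Their median was 0.18 below that of all entries. With median scaling 26 of the 43 fell after CS2, where 5667 of all 14951 entries did. In shFTO against shNS, 9 rose and 22 fell (20.9% and 51.2%, where 31.9% and 24.5% of all entries did), with a median 0.23 below. NUPR1, a stress-induced chromatin protein, rose from 2.25 ± 0.476 TPM (n = 4) to 19.4 ± 0.579 with CS1 and 8.90 ± 2.65 with CS2 (n = 3 each), by 2.67 and 1.59. WARS, the tryptophanyl-tRNA synthetase, rose from 55.3 ± 1.23 to 118 ± 6.86 TPM with CS1. SLC3A2, the heavy chain of several amino acid transporters, rose from 121 ± 7.94 to 301 ± 27.2 TPM with CS2. PSAT1, an enzyme of serine synthesis, fell from 201 ± 1.86 to 85.3 ± 15.3 TPM in shFTO (-1.24, adjusted p = 1.23e-08), where KLHL24 rose from 18.2 ± 0.182 to 37.3 ± 9.70 TPM.

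The metabolic arms of that list were counted separately, in a grouping made after the values were seen. Of 12 cytosolic aminoacyl-tRNA synthetase genes, 6 rose and 1 fell after CS1, 3 rose and 8 fell after CS2, and 0 rose and 9 fell in shFTO. Of 5 tested genes of serine and one-carbon metabolism, 4 rose and 0 fell after CS1, 1 rose and 1 fell after CS2, and 0 rose and 4 fell in shFTO. Of 8 tested amino acid transporter genes, 5 rose and 0 fell after CS1, 1 rose and 3 fell after CS2, and 0 rose and 5 fell in shFTO. For comparison, 37.5% of all tested entries rose and 14.3% fell after CS1, 49.5% and 24.6% after CS2, and 31.9% and 24.5% in shFTO. The synthetase medians were 0.13 after CS1, -0.41 after CS2 and -0.21 in shFTO, those of the serine and one-carbon genes 0.28, -0.09 and -0.39, and those of the transporters 0.28, -0.0023 and -0.20. The medians of all entries were 0.09, 0.20 and 0.07.

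**Figure D3:**
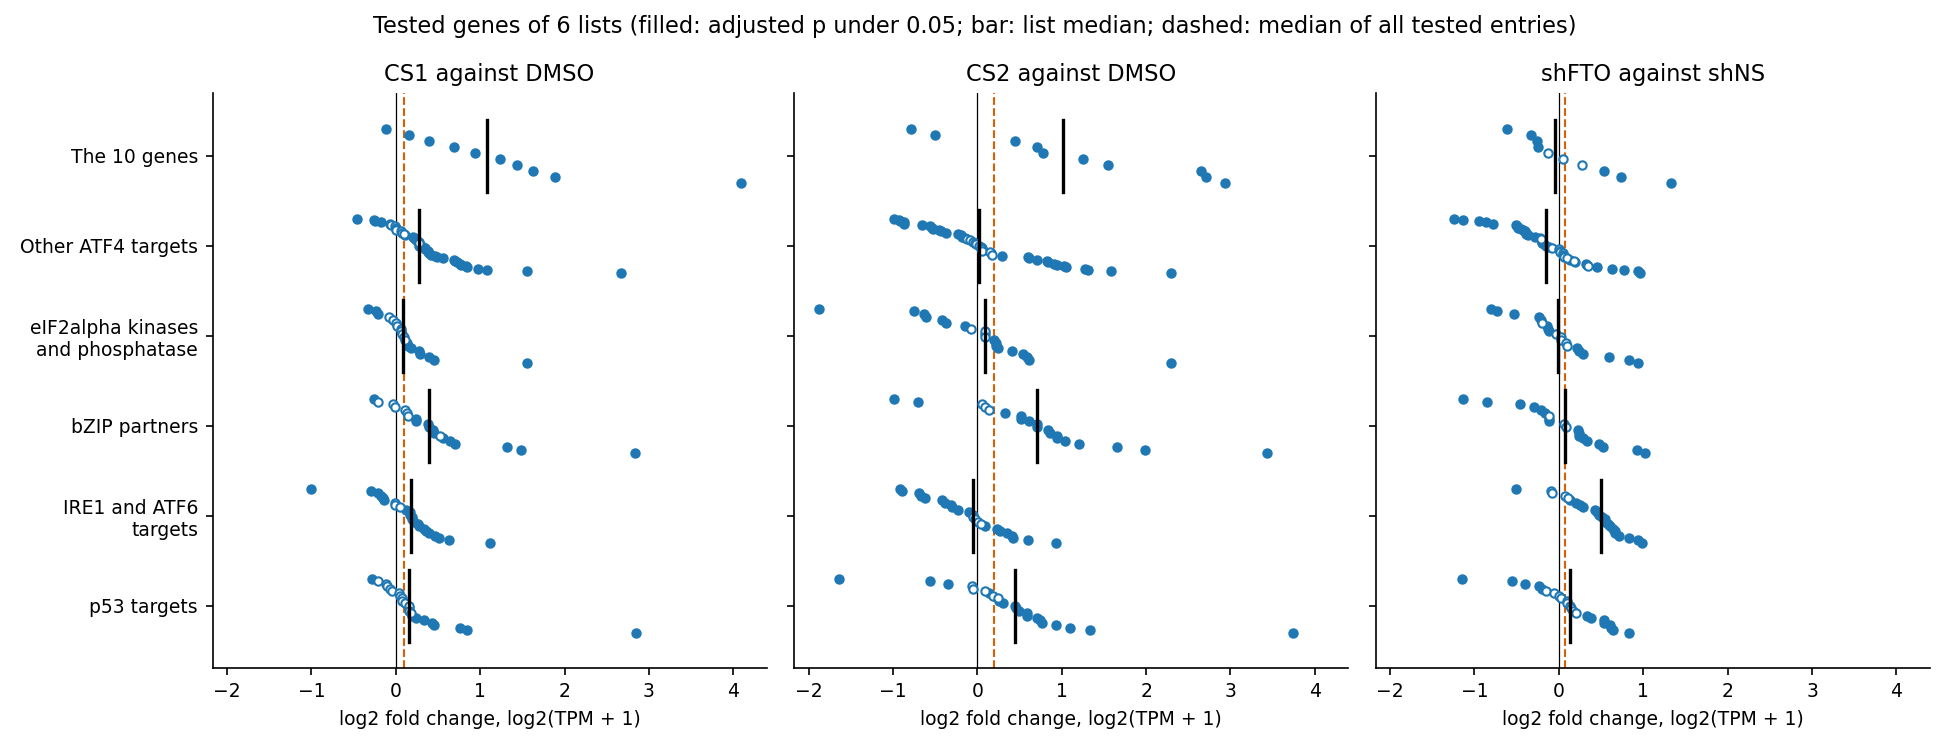
Fitted log2 differences on the log2(TPM + 1) scale (horizontal axes) of the tested genes of 6 lists in 3 comparisons; filled points have an adjusted p under 0.05, short bars are list medians and the dashed line is the median of all tested entries. The other ATF4 targets lie mostly right of the dashed line after CS1 and mostly left of it in shFTO, where the IRE1 and ATF6 targets lie mostly right of it. PPP1R15A, CEBPB, CEBPG, JDP2, DNAJC3 and TNFRSF10B are shared between lists and are drawn in each.

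Upstream of ATF4 are the eIF2alpha kinases, the eIF2 and eIF2B subunits and the phosphatase that reverses the mark, a list of 20 genes that were all tested. PPP1R15A of this list is also among the further ATF4 targets above, and DNAJC3 is also among the IRE1 and ATF6 targets below. PPP1R15A, which encodes GADD34, the stress-induced subunit that brings the phosphatase to eIF2alpha, rose in each of the 3 comparisons. It went from 48.9 ± 5.65 TPM (n = 4) to 144 ± 2.45 with CS1 and 245 ± 34.1 with CS2, and from 42.0 ± 2.53 in shNS to 81.5 ± 2.85 in shFTO (n = 3 each), by 1.55, 2.3 and 0.94. Of the 20, 8 rose and 3 fell after CS1, 10 rose and 7 fell after CS2, and 6 rose and 8 fell in shFTO. The 40% and 50% that rose with the compounds and the 30% in shFTO were near the 37.5%, 49.5% and 31.9% of all tested entries. Falls made up 15% after CS1, near the 14.3% of all entries, 35% after CS2, where 24.6% of all entries fell, and 40% in shFTO, where 24.5% did. With median scaling 3 rose and 9 fell after CS1, where 3201 and 5246 of all 14951 entries did. After CS2, 5 rose and 11 fell with that scaling, where 5199 and 5667 of all entries did. IMPACT, which inhibits the kinase GCN2, fell from 11.7 ± 0.356 to 2.47 ± 0.214 TPM with CS2 (-1.87, adjusted p = 4.23e-13). EIF2S1, which encodes eIF2alpha itself, fell from 101 ± 1.68 to 58.1 ± 7.54 TPM in shFTO (-0.80, adjusted p = 4.34e-08), where DNAJC3, an inhibitor of the eIF2alpha kinases in the ER, rose from 54.4 ± 1.90 to 98.1 ± 11.8 TPM.

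ATF4 binds DNA as a dimer with other bZIP factors. Of 22 listed genes of the bZIP family, whose pairing with ATF4 was not checked, 20 were tested. CEBPB, CEBPG and JDP2 of this list are also among the further ATF4 targets above. After CS1, 12 rose and 1 fell, after CS2, 15 rose and 2 fell, and in shFTO 9 rose and 8 fell, with medians of 0.39, 0.70 and 0.08 beside 0.09, 0.20 and 0.07 for all entries. As shares, 60%, 75% and 45% rose where 37.5%, 49.5% and 31.9% of all tested entries did, and 5%, 10% and 40% fell where 14.3%, 24.6% and 24.5% did. With median scaling 3 of the 20 fell after CS1, where 5246 of all 14951 entries did. FOSL2, a Fos-family subunit of the AP-1 factor, rose from 16.7 ± 0.470 TPM (n = 4) to 48.7 ± 3.92 with CS1 and 69.2 ± 7.15 with CS2 (n = 3 each), and JUN, another AP-1 subunit, from 26.8 ± 1.18 to 68.5 ± 3.86 and 89.9 ± 32.0 TPM. In shFTO, FOS rose from 4.89 ± 0.411 to 11.2 ± 2.73 TPM, while JDP2 fell from 35.4 ± 1.57 to 15.6 ± 0.815 TPM.

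The other branches of the unfolded protein response, IRE1 with XBP1 and ATF6, control ER chaperones and ER-associated degradation, and all 24 listed targets were tested. In shFTO 19 rose and 1 fell (79.2% and 4.17%, where 31.9% and 24.5% of all tested entries did), with a median 0.42 above that of all entries. After CS2, 8 rose and 11 fell (33.3% and 45.8%, where 49.5% and 24.6% of all entries did), with a median 0.25 below. With median scaling 5 rose and 17 fell after CS2, where 5199 and 5667 of all 14951 entries did. After CS1, 15 rose and 6 fell (62.5% and 25%, where 37.5% and 14.3% of all entries did). With median scaling 6 of the 24 rose after CS1, where 3201 of all 14951 entries did. The response to CS2 was lower than that to shFTO for 18 of the 24 and higher for 1, and the response to CS1 was lower for 13 and higher for 0; of all tested entries 23.7% and 18.3% were lower. HSPA5, the chaperone BiP, rose from 242 ± 6.10 to 465 ± 49.98 TPM in shFTO (0.93, adjusted p = 1.41e-08), and HYOU1 fell from 127 ± 3.55 to 66.8 ± 1.53 TPM with CS2 (-0.92, adjusted p = 1.83e-10). ERN1, which encodes IRE1alpha, rose in all 3 comparisons, from 3.60 ± 0.132 to 9.03 ± 0.465 TPM with CS1 and 7.76 ± 0.374 with CS2, and from 4.65 ± 0.222 to 10.3 ± 2.004 TPM in shFTO.

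Because ATF3, SESN2 and GDF15 are also induced by p53, 24 other p53 targets were listed, of which 23 were tested. TNFRSF10B of this list is also among the further ATF4 targets above. After CS1, 9 rose and 1 fell, after CS2, 15 rose and 3 fell, and in shFTO 8 rose and 5 fell. With median scaling 5 rose and 5 fell after CS1, where 3201 and 5246 of all 14951 entries did. The shares that rose after CS1 (39.1%) and in shFTO (34.8%) were near the 37.5% and 31.9% of all tested entries. After CS2 65.2% rose where 49.5% of all entries did. Falls were 1, 3 and 5 of the 23 after CS1, after CS2 and in shFTO, where 14.3%, 24.6% and 24.5% of all entries fell. The list medians were 0.15, 0.44 and 0.13, and those of all entries 0.09, 0.20 and 0.07. CDKN1A, which encodes p21, a brake on the cell cycle, went up from 6.56 ± 0.376 to 53.8 ± 9.35 TPM with CS1 and 101 ± 15.5 with CS2, by 2.85 and 3.74, and from 14.8 ± 0.600 to 27.5 ± 5.84 TPM in shFTO, by 0.83. BTG2, an antiproliferative gene, rose from 6.37 ± 0.329 to 12.2 ± 1.07 and 17.5 ± 0.386 TPM with the compounds. XPC, a DNA repair gene, fell from 31.1 ± 0.217 to 9.37 ± 0.967 TPM with CS2 (-1.64), and AEN fell from 25.7 ± 1.18 to 11.2 ± 2.54 TPM in shFTO.

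Of 6 listed receptor and processing genes of GDF15, FURIN, a convertase that cuts precursor proteins, and the receptor GFRAL were tested. FURIN rose from 52.2 ± 1.64 to 58.8 ± 1.44 TPM with CS1 and 62.0 ± 1.32 with CS2, and from 82.6 ± 1.86 to 98.5 ± 0.855 TPM in shFTO, by 0.17, 0.24 and 0.25. GFRAL rose with CS2 by 0.33, at a low level (means of 0.965 to 1.51 TPM, adjusted p = 0.0422), and did not pass with CS1 (-0.05, adjusted p = 0.806) or in shFTO (0.27, adjusted p = 0.133). RET, the signalling partner of GFRAL, did not pass the filter on low values.

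For 4 of the genes the entries with the most similar pattern were found by the root mean square difference over the 4 group means minus DMSO on the log2(TPM + 1) scale, among 10595 entries that reached a mean of 5 TPM in some group. This measure is a description without a test, and it grows with the size of the changes. Closest to DDIT3 were FPR1 (0.20), ITGAM (0.25), TREM1 (0.31) and PILRA (0.32), which all encode receptors of the myeloid cell surface. TREM1 stood at 22.2, 84.8, 221, 51.9 and 95.9 TPM in DMSO, CS1, CS2, shNS and shFTO, beside 27.1, 85.7, 184, 67.1 and 113 TPM for DDIT3. Closest to GDF15 were VWA5A (0.52), GPR34 (0.77), FCER2 (0.93) and CD52 (0.97), so that no entry lay as near to GDF15 as to the others. VWA5A had means of 2.07, 40.4, 16.1, 23.7 and 59.8 TPM in the same order of groups and was thus highest in shFTO, where GDF15 was highest with CS1.

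Closest to TRIB3 were PAFAH2 (0.13), UPB1 (0.13), CPNE5 (0.14) and UPP1 (0.15), of which UPB1 and UPP1 encode enzymes of pyrimidine breakdown and salvage. Closest to ASNS were ATPAF2 (0.06), ARHGAP15 (0.06), ECI1 (0.07) and the ribosomal protein pseudogene RPL21P28 (0.08), whose reads may be shared with its parent gene. Among the 10 genes themselves the nearest pairs by the same measure were ATF4 with ASNS (0.28), DDIT4 with SESN2 (0.29) and TRIB3 with SESN2 (0.51).

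**Figure D4:**
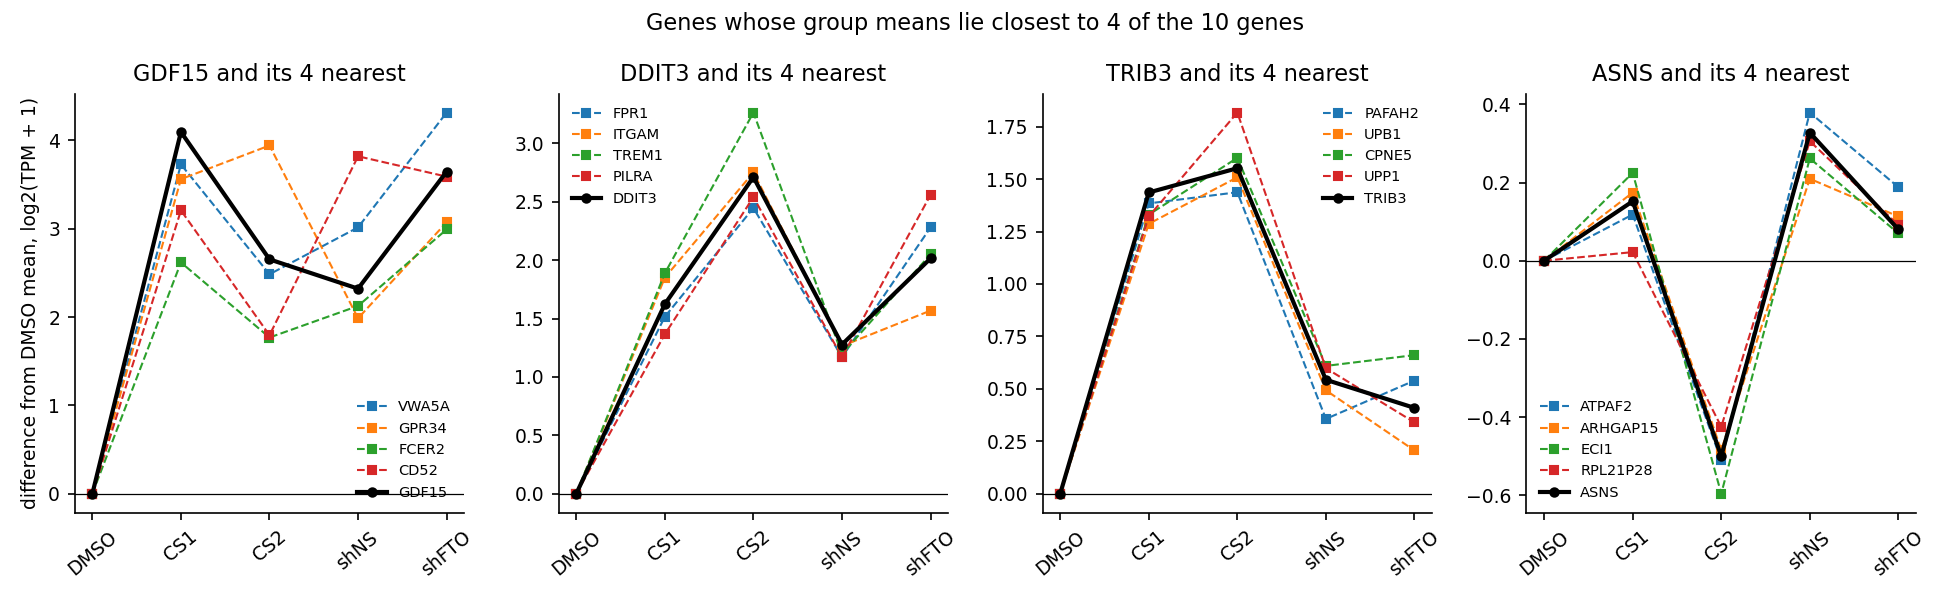
Group means minus the DMSO mean on the log2(TPM + 1) scale (vertical axes, ranges differ between panels) for GDF15, DDIT3, TRIB3 and ASNS (black, solid) and the 4 entries nearest to each (coloured, dashed); lines join groups only to guide the eye. DDIT3 and its 4 nearest all lie above 1 in each group but DMSO, and ASNS and its nearest all fall below 0 with CS2.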

How the data were processed

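Poly(A) RNA of 16 NOMO-1 libraries was measured in 5 groups (DMSO 4, CS1, CS2, shNS and shFTO 3 each). The deposited values are TPM, made by the authors with RSEM 1.2.31 on GRCh38 per the submitters' processing notes; aligner, annotation and strand setting: not given in the sources used here. TPM hold no counts, so depth is unknown. The unit was read from the values, which sum to 1000000 in each library. No pair of libraries was identical (0 pairs), and Pearson's r across genes within groups was 0.988 to 0.993.

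As log2(TPM + 1), 14951 of 26830 entries (those reaching 1 TPM in 3 or more libraries) were fitted with limma 3.58.1 in R 4.3.3 (lmFit, 1 mean per group over 16 libraries, eBayes with a mean-variance trend), with Benjamini-Hochberg adjustment per comparison over 7 comparisons and a threshold of 0.05. The test was tried on simulated data first. Positions and overlaps come from GENCODE release 29 (GRCh38), promoter windows from RefSeq (GRCh38.p14); Python 3.11.15 with pandas 2.3.3, numpy 2.4.6 and matplotlib 3.10.9 did the rest.

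The 10 genes and all gene lists were chosen with earlier results of these data known. Named besides the 10 were FTO, and from each list up to 3 genes that passed with the largest differences and a mean of at least 5 TPM in the higher group, for each of CS1, CS2 and shFTO against its control; not all are printed. Alternatives were other pseudocounts (0.1 and 5), no filter or one at 5 TPM, median scaling, quantile normalization, TPM rescaled without ribosomal and mitochondrial entries, no trend, only the groups compared, a replicate block and each library left out.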

Additional observations from a re-analysis of the deposited data

Results flagged for a closer look

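Of the 10 genes in DMSO, the group with 4 libraries, 1 had a library far from the rest: CHAC1 stood at 1.04 TPM in DMSO replicate 4 and at 0.70 to 0.74 TPM in the other three, a gap of 0.882 of the whole range which is above the limit for 4 samples. Chance sets about 1 in 20 such groups apart. Without that library CHAC1 stayed higher than DMSO after CS1 and CS2.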

How the results depend on the processing

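Of the values of the 10 genes under the alternatives, 1243 kept their direction and their side of the threshold, 26 lost and 10 gained the threshold, and 4 changed sign: ASNS after CS1 with median scaling (-0.0258), and ATF5 in shFTO against shNS with median scaling (-0.0356), with quantile normalization (-0.0072) and without shFTO replicate 3 (leaving out each library gave -0.0069 to 0.0999). The cause was not tested. For CS2 against DMSO, 169 of 169 values kept their call. The 1 gene lower after CS1, ATF4, became 0 with no filter, with no mean-variance trend and with only the groups compared; leaving out each library gave 0 to 1. CHAC1 was not tested under the 5 TPM filter. Over all entries, CS1 raised 3201 (median scaling) or 3718 (quantile normalization) in place of 5605, and lowered 5246, 4267 and, with rescaled TPM, 3336 in place of 2142; CS2 lowered 5667 with median scaling in place of 3674. Shares of higher and lower calls moved in the other comparisons too: with median scaling 3759 entries rose and 4612 fell in shFTO in place of 4776 and 3661. Depth is unknown, so counting error, which weighs most on GDF15 in DMSO and on CHAC1, could not be given.

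Replicate numbers are shared between the groups. Deviations of same-numbered libraries from their group means correlated at -0.01 to 0.13 between CS1 and DMSO and 0.01 to 0.11 between CS2 and DMSO. The values were 0.0044 to 0.076 between shFTO and shNS and 0.085 to 0.22 between CS1 and CS2. With so few libraries these values cannot decide whether the numbers pair the samples, and the main fits used no pairing. Each shFTO library correlated best with its own number among shNS, and each CS1 library among CS2 (3 of 3), but among DMSO this held for 2 of 3 CS1 and 2 of 3 CS2 libraries, a hint from the data and not from the design. With a replicate block 5406 entries rose and 2082 fell after CS1, 7276 and 3660 after CS2, and 4894 and 3670 in shFTO. Of the 10 genes, 9 rose and 0 fell after CS1 with the block, where ATF4 stood at -0.09 (adjusted p = 0.0822), and ATF4 passed in shNS against DMSO (0.12, adjusted p = 0.0230). Only DMSO has a replicate 4, so the block also takes DMSO replicate 4 out of the differences. With that library left out and no block, ATF4 stood at the same -0.09 and 0.12, so these changes cannot be credited to pairing. The block changed no other call of the 10.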
